A study of Sus scrofa with 120 samples.

Results

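The genes described here encode 9 secreted proteins of cartilage: aggrecan (ACAN), versican (VCAN), cartilage oligomeric matrix protein (COMP), matrilin-1 (MATN1), matrilin-3 (MATN3), cartilage intermediate layer protein (CILP), fibronectin (FN1), proteoglycan 4 or lubricin (PRG4) and cytokine-like 1 (CYTL1). They were chosen by name, with earlier results of these data known, as the lines of the count table that carry these symbols. They are 9 of the table's 31907 gene identifiers. The table gave the symbol of 8 of them, and PRG4, whose symbol was blank there, was found by its Entrez number. All 9 passed the filter on low counts in both experiments and at both times.

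The cells were chondrocytes from the femoral cartilage of pigs, used as primary cells with the genotype label WT/NT, set in 2% agarose to form constructs, and read by RNA sequencing. The 120 libraries formed 30 groups of 4. In the TRPV4 experiment, constructs were harvested 3 h or 9 h after stimulation began. The treatments were DMSO as vehicle, GSK101 to activate TRPV4 (1 nM), GSK205 to block it (10 uM in the design text, printed as mM in the treatment protocol), IL-1 (1 ng/mL), cyclic compressive loading (10% deformation at 1 Hz for 3 h), or loading with GSK205. In the PIEZO1 experiment, cells were left non-transfected (NT), received a non-targeting siRNA (siNTC) or received siRNA against PIEZO1 (siPIEZO1) before casting. Constructs of each state were then kept in DMSO vehicle, compressed once to 80% deformation, or given the PIEZO1 agonist Yoda1 (5 uM in the design text, mM in the protocol), and were harvested at the same 2 times. TRPV4 and PIEZO1 are calcium-permeable channels of the cell membrane that respond to mechanical stimuli. Nothing in the labels ties the 4 libraries of a group to different animals or cultures, and p-values reflect only the spread among these libraries. In such bulk libraries fewer cells of a type and less RNA per cell cannot be told apart.

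Cartilage resists compression because aggrecan, a proteoglycan that carries long chondroitin sulfate chains, binds hyaluronan and holds water inside a collagen network. COMP and the matrilins are bridging proteins that link collagen fibrils and proteoglycans, and fibronectin connects the matrix to integrins on the cell. Lubricin coats the joint surface and lowers friction there, whereas aggrecan-rich matrix is made mostly by deeper chondrocytes.

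Positions are RefSeq's on Sscrofa11.1, the build named in the submitters' processing notes, and all 9 genes are annotated as protein coding. ACAN lies on chromosome 7 from 54449830 to 54520606. VCAN lies on chromosome 2 from 91682177 to 91811674, and COMP on the same chromosome from 59061409 to 59068951. MATN1 is on chromosome 6 from 87342030 to 87351483 and MATN3 on chromosome 3 from 118185928 to 118206465. CILP is on chromosome 1 from 163236864 to 163271222, FN1 on chromosome 15 from 117658158 to 117737145 and CYTL1 on chromosome 8 from 5455576 to 5460861. PRG4 is on chromosome 9 from 127463875 to 127481770, where it shares 93 bases with its neighbour TPR. The VCAN line also carries the Entrez number of XRCC4, whose gene ends 38479 bases away, so VCAN counts may hold reads of both genes and are uncertain to that extent.

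Total counts per library were 20651530 to 80223797 in the TRPV4 experiment and 36807992 to 66240251 in the PIEZO1 experiment, and the smallest count of any member was 35, for MATN3. Levels are given as CPM, a gene's counts relative to the scaled total of its library. The experiments used different library kits, so no level was compared between them, and with no gene lengths at hand no level was compared between genes. All 12 chondrocyte markers listed (COL2A1, COL9A1, SOX9 and others) had a median above 1 CPM in every group, as the labelled cell type implies. Of 11 fibroblast and synovial markers, 8 or 9 had a median above 1 CPM in each TRPV4 group and 10 in each PIEZO1 group. TNC averaged 1136 and 320.2 CPM, COL3A1 349.2 and 399.2 CPM and PDGFRA 157.3 and 120.2 CPM in the TRPV4 and PIEZO1 experiments. The highest DPT value was 0.287 CPM in TRPV4 libraries and 32.3 CPM in PIEZO1 libraries. Because the kits differed, such pairs of values describe each experiment on its own. Of 12 leukocyte markers, 5 to 7 and 4 to 6 had a median above 1 CPM, with CD14 up to 94.8 and 55.0 CPM, S100A9 up to 88.2 and 3.05 CPM and CD79A up to 3.85 and 42.6 CPM. PTPRC, TYROBP and CD3E, of the same list, were at or below 0.562, 0.246 and 0.415 CPM in every library. Members took 2.24 to 3.90% of all counts in TRPV4 libraries. In the PIEZO1 experiment they took 3.09 to 5.15% in NT, 2.12 to 3.87% in siNTC and 1.19 to 2.08% in siPIEZO1 libraries.

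The siRNAs used against PIEZO1 are shown because COMP, CILP and FN1 were lower in every comparison with siNTC of the constructs that received them. They are printed 5′ to 3′ as the labels give them, which do not say which strand is shown, and were used together:
siPIEZO1a: cagcgagaucucgcacuccauc
siPIEZO1b: uacgaccugcugcagcuccug
siPIEZO1c: acccgcuggccaugcaguucuu
PIEZO1 itself was measured in the libraries of the PIEZO1 experiment, which were made with a low-input kit. Its vehicle libraries at 3 h averaged 5.67 ± 0.763 CPM without transfection, 5.64 ± 1.53 CPM under siNTC and 4.72 ± 0.429 CPM under siPIEZO1 (mean ± SD, n = 4), and the ranges overlapped. The 9 h averages were 4.51 ± 0.561, 5.52 ± 1.30 and 3.46 ± 1.11 CPM, again with overlapping ranges for siNTC and siPIEZO1. PIEZO1 did not pass the test between siPIEZO1 and siNTC in vehicle on the log2 scale. The 3 h difference was −0.24 ± 0.19 (SE, edgeR adjusted p = 0.58), and the 9 h difference was −0.66 ± 0.23 (adjusted p = 0.062). Averaged over the 3 stimuli PIEZO1 was called lower under siPIEZO1, with a 3 h difference of −0.43 ± 0.11 (adjusted p = 0.0066) and a 9 h difference of −0.60 ± 0.13 (adjusted p = 0.0010). The name siPIEZO1 stands here for the siRNA given on the label.

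Over the 12 groups of the TRPV4 experiment, PRG4 and CYTL1 varied most. Group means of PRG4 spanned 8.75-fold, from 8.76 CPM after loading at 9 h to 76.7 CPM after IL-1 at 9 h. Those of CYTL1 spanned 8.04-fold, from 8.48 CPM after IL-1 at 9 h to 68.1 CPM after GSK101 at 9 h. The other 7 genes spanned 1.49-fold (COMP) to 2.38-fold (VCAN). In order of level, the libraries of neighbouring groups overlapped for COMP, MATN3, CILP and FN1 at each of 11 steps. CYTL1 had 4 steps without overlap, MATN1 and PRG4 2 each, and ACAN and VCAN 1 each.

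**Figure D1:**
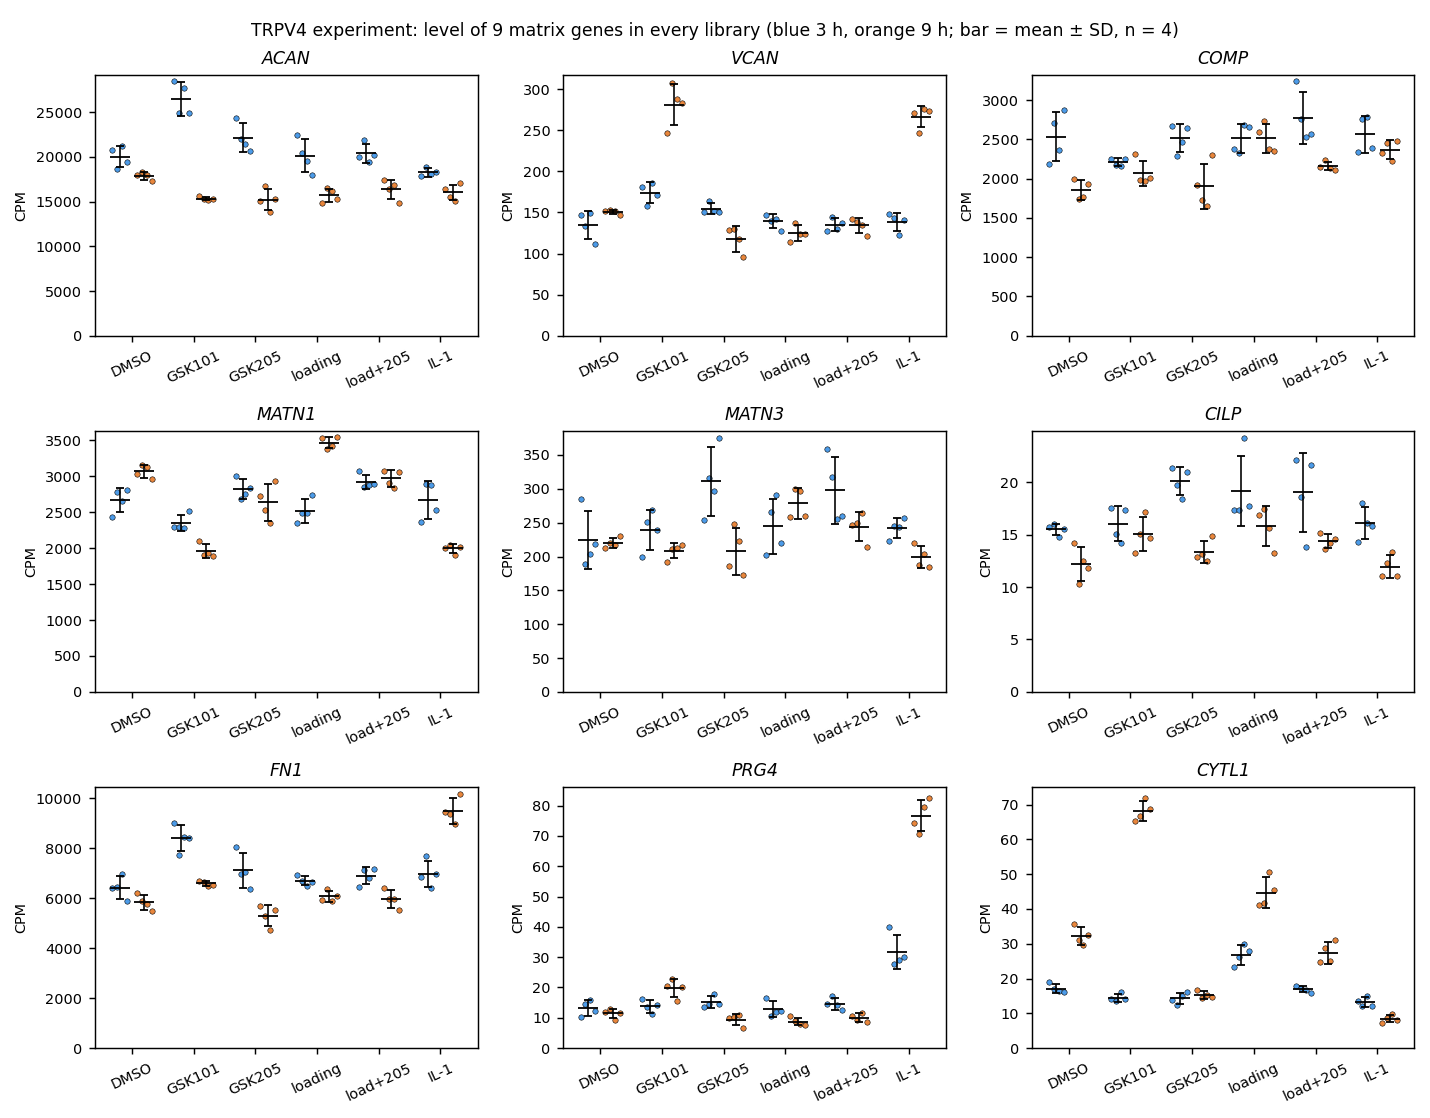
Levels of the 9 genes in the TRPV4 experiment, in CPM on linear axes that start at 0, as 1 point per library of the 12 groups (blue 3 h, orange 9 h) with the mean and SD. PRG4 is highest in the IL-1 libraries at 9 h (70.7 to 82.4 CPM), and CYTL1 is lowest there (7.36 to 9.92 CPM) and highest in the GSK101 libraries at 9 h (65.2 to 71.9 CPM).

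GSK101 was compared with DMSO to see what opening TRPV4 with a drug does to these genes. At 3 h the large proteoglycans and fibronectin were higher. Among all genes tested, 40% passed the threshold (edgeR, adjusted p under 0.05), and 4 of the 9 members did. ACAN, the major proteoglycan of cartilage, stood at 20820, 18660, 21260 and 19440 CPM in DMSO and at 28490, 24890, 27740 and 24910 CPM in GSK101 libraries. Every GSK101 library was above every DMSO library, and ACAN rose by 0.42 ± 0.06 on the log2 scale (SE, adjusted p = 1.5e-06). VCAN, a related proteoglycan of looser and developing matrices, stood at 146.7, 133.1, 148.7 and 111 CPM in DMSO and at 181, 158.1, 186.4 and 171.4 CPM after GSK101. Its groups did not overlap either, with a rise of 0.39 ± 0.07 (adjusted p = 9.1e-05).

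FN1, the adhesive glycoprotein, followed the same direction at 3 h. Its DMSO libraries read 6409, 6458, 6960 and 5872 CPM, and its GSK101 libraries 8992, 7735, 8430 and 8427 CPM. Again no libraries overlapped, and FN1 rose by 0.41 ± 0.06 (adjusted p = 5.8e-06). MATN1 was called lower (−0.16 ± 0.06, adjusted p = 0.035) with groups that overlapped. That call was lost without DMSO replicate 2, 3 or 4 or GSK101 replicate 1, 2 or 3 (adjusted p = 0.056 to 0.10). COMP (−0.18 ± 0.08), MATN3 (0.12 ± 0.13), CILP (0.07 ± 0.12), PRG4 (0.07 ± 0.14) and CYTL1 (−0.21 ± 0.09) did not pass the test. The GSK101 libraries at 3 h were deeper than those in DMSO (62677053 to 80223797 against 20651530 to 29904509 counts) and held less small RNA (1.83 to 3.02% against 4.64 to 9.32%). The part of these differences in the 3 h results was not tested.

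By 9 h the pattern had shifted: 62.3% of all genes passed, and 7 of the 9 members did. ACAN was now lower, at 15640, 15280, 15230 and 15260 CPM against 17960, 18320, 17980 and 17300 CPM in DMSO, a difference of −0.25 ± 0.05 on the log2 scale (adjusted p = 9.4e-05). VCAN had gone further up, from 151.8, 152.7, 151.2 and 147 CPM to 247, 307.2, 287.5 and 283 CPM. Neither gene's groups overlapped, and the VCAN difference was 0.87 ± 0.07 (adjusted p = 2.1e-12).

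MATN1, a bridging protein found mainly in cartilage, stood at 3040, 3160, 3125 and 2957 CPM in DMSO and at 2103, 1909, 1938 and 1891 CPM in GSK101 libraries at 9 h. All GSK101 libraries lay below all DMSO libraries (−0.67 ± 0.05, adjusted p = 3.7e-13). COMP (0.13 ± 0.07) and MATN3 (−0.10 ± 0.08) did not pass. CILP, a glycoprotein of the middle layers of cartilage, was called higher (0.28 ± 0.10, adjusted p = 0.015) with overlapping groups, and the call was lost without DMSO replicate 2 (0.21) or GSK101 replicate 3 (0.22). FN1 was still called higher, by 0.15 ± 0.05 (adjusted p = 0.011), but not without DMSO replicate 4 (0.12, adjusted p = 0.057).

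The lubricant PRG4 and the small secreted protein CYTL1 joined at 9 h. PRG4 read 12.1, 12.9, 9.41 and 11.6 CPM in DMSO and 20.4, 22.8, 15.7 and 20.3 CPM after GSK101, with no overlap (0.75 ± 0.12, adjusted p = 3.7e-06). CYTL1, which is made by chondrocytes and named for its resemblance to cytokines, read 35.7, 31.1, 29.6 and 32.5 CPM in DMSO and 65.2, 66.7, 71.9 and 68.7 CPM after GSK101. Its groups stood well apart (1.05 ± 0.08, adjusted p = 4.3e-13).

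The change of the GSK101 effect from 3 h to 9 h was itself tested, with 45.8% of all genes called. The GSK101 libraries of 3 h were deeper than those of 9 h (62677053 to 80223797 against 22210499 to 31454500 counts). They also held less small RNA (1.83 to 3.02% against 4.71 to 9.71%), and the part of these differences in the change was not tested. The change passed for 7 of the 9 members. The difference between the effects was −0.62 ± 0.08 for ACAN (adjusted p = 7.7e-09), 0.53 ± 0.11 for VCAN, 0.35 ± 0.11 for COMP, −0.46 ± 0.08 for MATN1, 0.73 ± 0.20 for PRG4 and 1.31 ± 0.12 for CYTL1 (adjusted p = 6.6e-13). ACAN thus had a higher level than DMSO at the first harvest and a lower one at the second. The same test for FN1 (−0.21 ± 0.08, adjusted p = 0.037) was lost without DMSO 3 h replicate 4, DMSO 9 h replicate 1 or 2, GSK101 3 h replicate 1 or GSK101 9 h replicate 4 (adjusted p = 0.051 to 0.097), and with no filter on low counts.

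**Figure D2:**
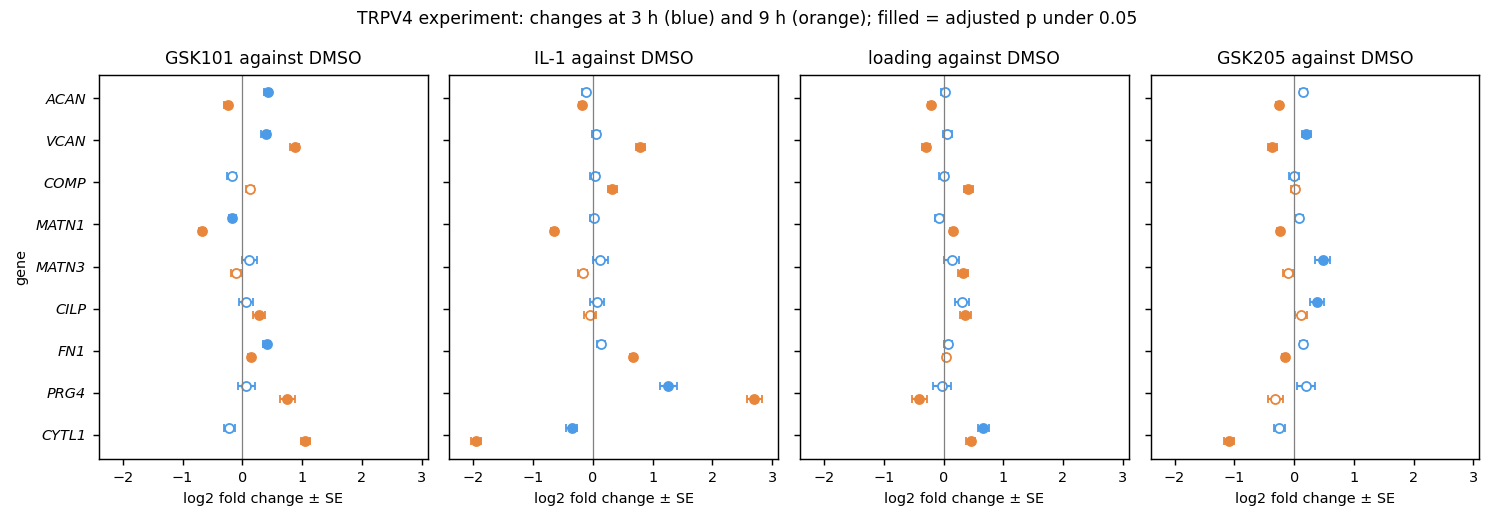
Log2 fold change against DMSO on the horizontal axis for each of the 9 genes after GSK101, IL-1, loading or GSK205 (blue 3 h, orange 9 h; bars are 1 standard error, filled points have an adjusted p under 0.05). ACAN under GSK101 lies at 0.42 at 3 h and at −0.25 at 9 h, and CYTL1 at 9 h lies at 1.05 under GSK101 and at −1.96 under IL-1.

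Lists of known genes were read beside the members under GSK101, against the 40% of all genes called at 3 h and the 62.3% called at 9 h. All lists in this text were chosen with earlier results of these data known, so their shares are a description and carry no test. Of 28 tested genes for chondroitin sulfate synthesis and aggrecan assembly, 11 rose and 3 fell at 3 h, or 50% (median 0.11, against 0.0094 over all genes). At 9 h 12 rose and 11 fell, or 82.1% (median 0.016, against −0.074 over all genes). CHST15 (1.54) and UST (1.06), which add sulfate groups, were among the rises, and the sulfate transporter SLC26A2 (−1.48) and the nucleotide sugar transporter SLC35D1 (−1.18) among the falls. Of 18 proteases and inhibitors, 12 rose and 0 fell at 3 h, or 66.7% (median 0.53), led by the aggrecan-cleaving ADAMTS1 (1.93) and ADAMTS4 (1.24, from few counts). At 9 h 12 rose and 3 fell, or 83.3% (median 0.82), with the inhibitor TIMP1 at 3.00, MMP3 at 2.29 and ADAMTS20 at −2.56. The MMP3 line also carries the Entrez number of MMP1, so reads of both may be counted there.

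Receptors and transcription factors were called in both directions at 9 h. Of 12 receptors of fibronectin and hyaluronan 8 rose and 4 fell (median 0.56). CD44, the main hyaluronan receptor, was up by 3.89 and the integrin subunit ITGB3 by 2.63, while the hyaluronan receptors HMMR (−0.54) and LAYN (−0.44) were down. Of 14 transcription factors of matrix genes, 10 rose and 0 fell at 3 h (median 0.68), with NFATC2 at 3.39 and KLF4 at 3.08. At 9 h 9 rose and 3 fell (median 0.58), with NFATC2 at 3.15 and SOX6 at −1.41. Of the other cartilage matrix genes, 10 of 20 rose and 1 fell at 3 h, or 55% (median 0.14). The share was again 55% at 9 h, below that of all genes (median −0.20), where 1 rose, THBS1 (2.45), which encodes thrombospondin-1, and 10 fell, with PRELP at −0.57 and CHAD at −0.42. Fibroblast and synovial markers summed to 1935 to 2037 CPM in GSK101 and 1420 to 1594 CPM in DMSO libraries at 9 h. TNC weighed most in this sum, averaging 1136 CPM over the TRPV4 libraries against 349.2 CPM for COL3A1. The sum does not show how many of these markers rose, and their part in the 9 h results was not tested.

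IL-1 is an inflammatory cytokine that drives cartilage breakdown. At 3 h 32.2% of all genes differed from DMSO and 2 of the 9 members did. PRG4 stood at 10.2, 14.6, 15.9 and 12.3 CPM in DMSO and at 39.9, 27.7, 29.1 and 30.0 CPM after IL-1 (1.26 ± 0.14, adjusted p = 2.1e-08). CYTL1 went the other way, from 19.0, 17.0, 16.3 and 16.1 CPM to 13.5, 12.1, 15.1 and 12.1 CPM (−0.36 ± 0.10, adjusted p = 0.0041). Neither gene had overlapping libraries. The other 7 lay between −0.12 (ACAN) and 0.13 (FN1) and did not pass.

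At 9 h 65.1% of all genes and 7 of the 9 members passed, and PRG4 and CYTL1 had moved furthest. PRG4 read 74.2, 70.7, 79.4 and 82.4 CPM after IL-1, against 12.1, 12.9, 9.41 and 11.6 CPM in DMSO. That is a difference of 2.70 ± 0.12 (adjusted p = 3.5e-19). CYTL1 read 7.36, 8.603, 9.92 and 8.03 CPM, against 35.7, 31.1, 29.6 and 32.5 CPM (−1.96 ± 0.09, adjusted p = 4.6e-19). The groups of both genes stood far apart, in opposite directions. The IL-1 libraries at 9 h were deeper than those in DMSO (36091153 to 63598533 against 24190041 to 35352928 counts), and the part of this in the 9 h results was not tested.

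The proteoglycans also parted at 9 h. ACAN read 16430, 15510, 15110 and 17060 CPM after IL-1, all below the 17300 CPM of the lowest DMSO library (−0.18 ± 0.05, adjusted p = 0.0021). VCAN read 270.5, 247.2, 275.3 and 272.9 CPM, all above its highest DMSO library at 152.7 CPM (0.80 ± 0.07, adjusted p = 1.4e-11). Among the bridging proteins, MATN1 fell to 2007, 2052, 1907 and 2024 CPM (−0.65 ± 0.05, adjusted p = 7.4e-13). COMP rose to 2323, 2458, 2219 and 2484 CPM from 2000, 1736, 1764 and 1937 CPM (0.32 ± 0.07, adjusted p = 0.00019). MATN3 (−0.17 ± 0.08) and CILP (−0.05 ± 0.10) did not pass.

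FN1, whose fragments are found in inflamed joints, read 9430, 9353, 8972 and 10180 CPM after IL-1 at 9 h, above all DMSO libraries (0.67 ± 0.05, adjusted p = 2.8e-13). The change of the IL-1 effect between harvests was called for 38.8% of all genes and for 6 of the 9 members. It was −0.62 ± 0.08 for MATN1, 1.48 ± 0.20 for PRG4, −1.56 ± 0.13 for CYTL1, 0.58 ± 0.08 for FN1 and 0.78 ± 0.11 for VCAN. For COMP it was 0.33 ± 0.11 (adjusted p = 0.017) and was lost without DMSO 3 h replicate 2 or 4 or IL-1 3 h replicate 1 (adjusted p = 0.050 to 0.071).

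The same lists were read under IL-1 at 9 h, where 65.1% of all genes were called. Of 18 tested proteases and inhibitors, 13 rose and 2 fell, or 83.3% (median 1.56, against −0.067 over all genes). The collagenase MMP13 was up by 8.17 ± 0.10 and the aggrecanase ADAMTS4 by 7.97 ± 0.21, while ADAMTS20 (−1.33) and MMP14 (−0.37) were down. ADAMTS4 had only 2 to 18 counts in DMSO libraries, so its fold is imprecise. Of 28 genes for chondroitin sulfate synthesis, 9 rose and 14 fell, or 82.1% (median −0.22), with DSE at 2.07 and CHST15 at 1.87 against SLC35D1 at −2.31 and CHST12 at −2.08. CD44 (4.82) and SDC4 (3.60) led 7 rises among 12 receptors (median 0.35), and LAYN (−1.14) and ITGA10 (−0.79) led 4 falls.

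Markers of other cells were measured beside these changes. The summed level of 12 leukocyte markers was 38.6 to 45.8 CPM in DMSO and 181.4 to 186.6 CPM in IL-1 libraries at 9 h, where S100A9 (5.3) and CD14 (1.78) were higher and LAPTM5 (−1.27) and CD68 (−0.77) lower. PTPRC, CD3E and TYROBP, of the same list, were at or below 0.335, 0.322 and 0.105 CPM in every TRPV4 library. The summed level of 11 fibroblast and synovial markers was 1420 to 1594 CPM in DMSO and 2583 to 2913 CPM in IL-1 libraries at 9 h. Of 9 tested, 2 rose, COL3A1 (1.80) and TNC (0.78), and 6 fell, with CD34 at −1.66 and PDGFRB at −1.21. Among all genes 65.1% were called in that comparison. Endothelial and mural markers summed to 13.7 to 15.7 CPM after IL-1 and 7.41 to 10.5 CPM in DMSO at 9 h. The part of all these markers in the IL-1 results was not tested.

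GSK101 and IL-1 were also set against each other directly, with both sets of libraries at matched times. The 3 h GSK101 libraries were deeper than the 3 h IL-1 libraries (62677053 to 80223797 against 25574511 to 48666122 counts). They also held less small RNA (1.83 to 3.02% against 5.79 to 6.55%), and the part of these differences in the 3 h results was not tested. At 3 h 41.5% of all genes and 6 of the 9 members differed. GSK101 libraries were higher for ACAN (0.55 ± 0.06, adjusted p = 1.1e-08), VCAN (0.34 ± 0.07) and FN1 (0.27 ± 0.06), and lower for PRG4 (−1.19 ± 0.14, adjusted p = 2.6e-08). COMP (−0.21 ± 0.08, adjusted p = 0.040) and MATN1 (−0.17 ± 0.06, adjusted p = 0.024) were also called lower. Both calls were lost without GSK101 replicate 1, 2 or 3 or IL-1 replicate 2 or 3, and COMP also without GSK101 replicate 4 (adjusted p = 0.055 to 0.13) and with the replicate number as a block.

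At 9 h 53.8% of all genes and 5 of the 9 members differed between GSK101 and IL-1. CYTL1 was the most different, with 65.2 to 71.9 CPM in GSK101 and 7.36 to 9.92 CPM in IL-1 libraries (3.01 ± 0.09, adjusted p = 5.2e-24). PRG4 (−1.95 ± 0.12, adjusted p = 1.2e-15) and FN1 (−0.52 ± 0.05) were lower after GSK101, and CILP (0.34 ± 0.10, adjusted p = 0.0047) was higher. COMP was called lower (−0.20 ± 0.07, adjusted p = 0.020), but not without GSK101 replicate 2, 3 or 4 or IL-1 replicate 2 or 4 (adjusted p = 0.052 to 0.062). ACAN (−0.06 ± 0.05), VCAN (0.08 ± 0.07), MATN1 (−0.03 ± 0.05) and MATN3 (0.07 ± 0.08) were not called different. At 9 h it was the IL-1 libraries that were deeper (36091153 to 63598533 against 22210499 to 31454500 counts for GSK101), and the part of this was not tested.

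Cyclic loading was the mechanical stimulus of the TRPV4 experiment. At 3 h it changed 10.2% of all genes and 1 of the 9 members, CYTL1. Loaded constructs read 23.2, 26.2, 30.1 and 28.0 CPM against 19.0, 17.0, 16.3 and 16.1 CPM in DMSO, without overlap (0.66 ± 0.09, adjusted p = 8.3e-06). Values of the other 8 lay between −0.07 (MATN1) and 0.31 (CILP, adjusted p = 0.091). The loading libraries at 3 h were deeper than those in DMSO (31848889 to 66758428 against 20651530 to 29904509 counts). They also held less small RNA (3.42 to 4.50% against 4.64 to 9.32%), and the part of these differences in the 3 h results was not tested.

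At 9 h 23.7% of all genes and 8 of the 9 members passed, with called changes from −0.40 for PRG4 to 0.45 for CYTL1. The proteoglycans were lower: ACAN read 14840, 16490, 16180 and 15330 CPM, below every DMSO library (−0.20 ± 0.05, adjusted p = 0.0034). VCAN read 113.5, 137.1, 124.3 and 123.6 CPM, also below every DMSO library (−0.29 ± 0.07, adjusted p = 0.0028). The bridging proteins were higher: COMP read 2592, 2739, 2378 and 2347 CPM, above its highest DMSO library at 2000 CPM (0.42 ± 0.07, adjusted p = 6e-05).

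MATN3, another matrilin, read 258.2, 300.1, 297.3 and 259.4 CPM in loaded constructs at 9 h and 213.1, 219.5, 216.8 and 230 CPM in DMSO. The groups did not overlap (0.32 ± 0.08, adjusted p = 0.0033). MATN1 was called higher (0.16 ± 0.05, adjusted p = 0.022), but not without DMSO replicate 4 or loading replicate 1 or 4 (adjusted p = 0.052 to 0.073). CILP was higher (0.37 ± 0.10, adjusted p = 0.0053) with 1 loaded library inside the DMSO range. CYTL1 read 41.1, 41.6, 50.6 and 45.6 CPM, above all DMSO libraries (0.45 ± 0.08, adjusted p = 8.5e-05). PRG4 was called lower, at 10.6, 8.82, 8.01 and 7.67 CPM (−0.40 ± 0.13, adjusted p = 0.018), but its groups overlapped and the call was lost without DMSO replicate 2 or loading replicate 4 (both −0.34, adjusted p = 0.087 and 0.066). FN1 did not pass (0.04 ± 0.05).

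The loading effect changed between harvests for 10.1% of all genes and for 3 of the 9 members. COMP passed with 0.45 ± 0.11 (adjusted p = 0.0077). MATN1 (0.26 ± 0.08, adjusted p = 0.030) and VCAN (−0.32 ± 0.11, adjusted p = 0.046) passed narrowly. MATN1 was lost on leaving out any of 8 single libraries, namely DMSO 3 h replicate 2 or 4, DMSO 9 h replicate 4, loading 3 h replicate 1, 2 or 3 and loading 9 h replicate 1 or 4. VCAN was lost on leaving out any of 12, all of those compared except DMSO 3 h replicates 1 and 3, loading 3 h replicate 4 and loading 9 h replicate 2 (−0.33 to −0.24), and with no filter on low counts.

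Around the members, loading at 9 h went with lower transcription factors of matrix genes: 12 of 14 fell and 0 rose, or 85.7% against 23.7% of all genes (median −0.24, against 0.0050). NFATC2 stood at −1.03 and RUNX2 at −0.77. Among the 18 proteases and inhibitors 4 rose and 2 fell, or 33.3% (median 0.024), with MMP13 at 0.46, MMP3 at 0.37, TIMP3 at −0.20 and MMP14 at −0.17. Of the 28 genes for chondroitin sulfate synthesis 8 rose and 6 fell, or 50% (median 0.066), with PAPSS2 at 0.34 and the chain-starting XYLT1 at −0.63. No fibroblast or leukocyte marker passed at 3 h. At 9 h PDGFRA (0.35), S100A9 (0.60) and CD14 (0.33) were higher and TNC (−0.19) and CD79A (−0.95) lower, and the part of these markers in the members' results was not tested.

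GSK205, the TRPV4 blocker, was given alone and with loading. Alone at 3 h it changed 27.1% of all genes and 3 of the 9 members. MATN3 was higher at 254.2, 316.5, 297.5 and 375.7 CPM against 285.6, 189.7, 203.1 and 217.9 CPM in DMSO, with overlap (0.48 ± 0.13, adjusted p = 0.0046). CILP was higher without overlap, at 21.4, 19.7, 18.4 and 21.0 CPM against 15.7, 16.0, 14.8 and 15.5 CPM (0.38 ± 0.12, adjusted p = 0.016). VCAN was called higher (0.20 ± 0.07, adjusted p = 0.042), but not without DMSO replicate 2 or 4 or any GSK205 replicate (adjusted p = 0.057 to 0.22), nor with DESeq2, its size factors, protein-coding genes alone or the compared groups alone.

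At 9 h GSK205 alone changed 21.2% of all genes and 5 of the 9 members, all 5 downward. CYTL1 led, at 16.8, 14.4, 15.2 and 14.8 CPM against 35.7, 31.1, 29.6 and 32.5 CPM in DMSO (−1.09 ± 0.09, adjusted p = 6.7e-11). ACAN (−0.25 ± 0.05, adjusted p = 0.00055), VCAN (−0.37 ± 0.07, adjusted p = 0.00031) and MATN1 (−0.24 ± 0.05, adjusted p = 0.00090) also fell, each without overlap. FN1 was called lower (−0.15 ± 0.05, adjusted p = 0.029), but not without DMSO replicate 1, 2 or 3 or GSK205 replicate 2 or 3 (adjusted p = 0.051 to 0.15), nor with the compared groups alone.

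In loaded constructs, adding GSK205 changed 15.3% of all genes at 3 h and 2 of the 9 members. CYTL1 read 17.8, 17.4, 16.8 and 15.9 CPM with loading and GSK205, against 23.2, 26.2, 30.1 and 28.0 CPM with loading alone (−0.67 ± 0.09, adjusted p = 5e-06). MATN1 was called higher (0.21 ± 0.06, adjusted p = 0.020), but not without loading replicate 1 or 2 or the combined group's replicate 1 (adjusted p = 0.054 to 0.089). At 9 h 4.1% of all genes and 2 of the 9 members passed. CYTL1 was again lower, at 24.7, 28.7, 25.1 and 31.2 CPM against 41.1, 41.6, 50.6 and 45.6 CPM (−0.71 ± 0.08, adjusted p = 1.6e-06). MATN1 was lower as well (−0.23 ± 0.05, adjusted p = 0.0067), and neither gene's groups overlapped.

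Whether GSK205 altered the loading effect is asked by the interaction of both treatments. At 3 h 2.25% of all genes and 0 of the 9 members passed it with edgeR, 3 members had an unadjusted p under 0.05, and DESeq2 called 0. CYTL1 had the lowest adjusted p of the 9 (−0.42 ± 0.13, adjusted p = 0.081). At 9 h 4.64% of all genes and 2 of the 9 members passed. The difference made by loading was higher with GSK205 than without it for ACAN (0.30 ± 0.07, adjusted p = 0.012) and VCAN (0.47 ± 0.10, adjusted p = 0.0052). ACAN levels were 17390, 16400, 16910 and 14900 CPM with loading and GSK205 against 15040, 16750, 13870 and 15270 CPM with GSK205 alone. VCAN levels were 142, 138.9, 134.4 and 121.9 CPM against 128.7, 130.1, 118.1 and 95.95 CPM. The mean with loading was thus above the mean without it when GSK205 was present, at 16400 against 15230 CPM for ACAN and 134.3 against 118.2 CPM for VCAN, and below it when GSK205 was absent. With GSK205 both pairs of groups overlapped. For CYTL1 the interaction at 9 h was 0.38 ± 0.12 (adjusted p = 0.057). Its 9 h means were 27.4 CPM with loading and GSK205 and 15.3 CPM with GSK205 alone, against 44.7 CPM with loading and 32.2 CPM in DMSO. At 9 h its mean was thus higher with loading both with and without GSK205. The 3 h means, in the same order, were 17.0, 14.3, 26.9 and 17.1 CPM.

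DMSO libraries of the harvests at 3 h and 9 h were compared as well. Time and any difference in handling between these harvests cannot be told apart. In DMSO 22.2% of all genes differed between 9 h and 3 h, and 5 of the 9 members did. CYTL1 rose from 19.0, 17.0, 16.3 and 16.1 CPM to 35.7, 31.1, 29.6 and 32.5 CPM (0.92 ± 0.09, adjusted p = 1.4e-11). COMP fell from 2189, 2710, 2367 and 2872 CPM to 2000, 1736, 1764 and 1937 CPM (−0.45 ± 0.08, adjusted p = 2.9e-05). Neither gene's times overlapped. ACAN (−0.16 ± 0.06), CILP (−0.35 ± 0.11) and MATN1 (0.20 ± 0.06) were called as well. ACAN was lost without DMSO 3 h replicate 1 or 3 or DMSO 9 h replicate 1, 3 or 4, CILP without DMSO 9 h replicate 2 or 4, and MATN1 without DMSO 3 h replicate 1 (adjusted p = 0.054 to 0.12).

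In the PIEZO1 experiment levels differed between the transfection states, most clearly for CILP and FN1. CILP spanned 15.5-fold over the 18 group means, FN1 4.74-fold, MATN3 4.56-fold, PRG4 4.42-fold, MATN1 4.34-fold and COMP 3.85-fold. VCAN (2.24-fold), CYTL1 (1.96-fold) and ACAN (1.68-fold) varied least. Ordered by level, CILP and FN1 each broke at 2 of 17 steps without overlap, between NT and siNTC and between siNTC and siPIEZO1 groups. COMP broke at 1 step, between the siNTC compression groups of 9 h and 3 h, and the other 6 genes at none.

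**Figure D3:**
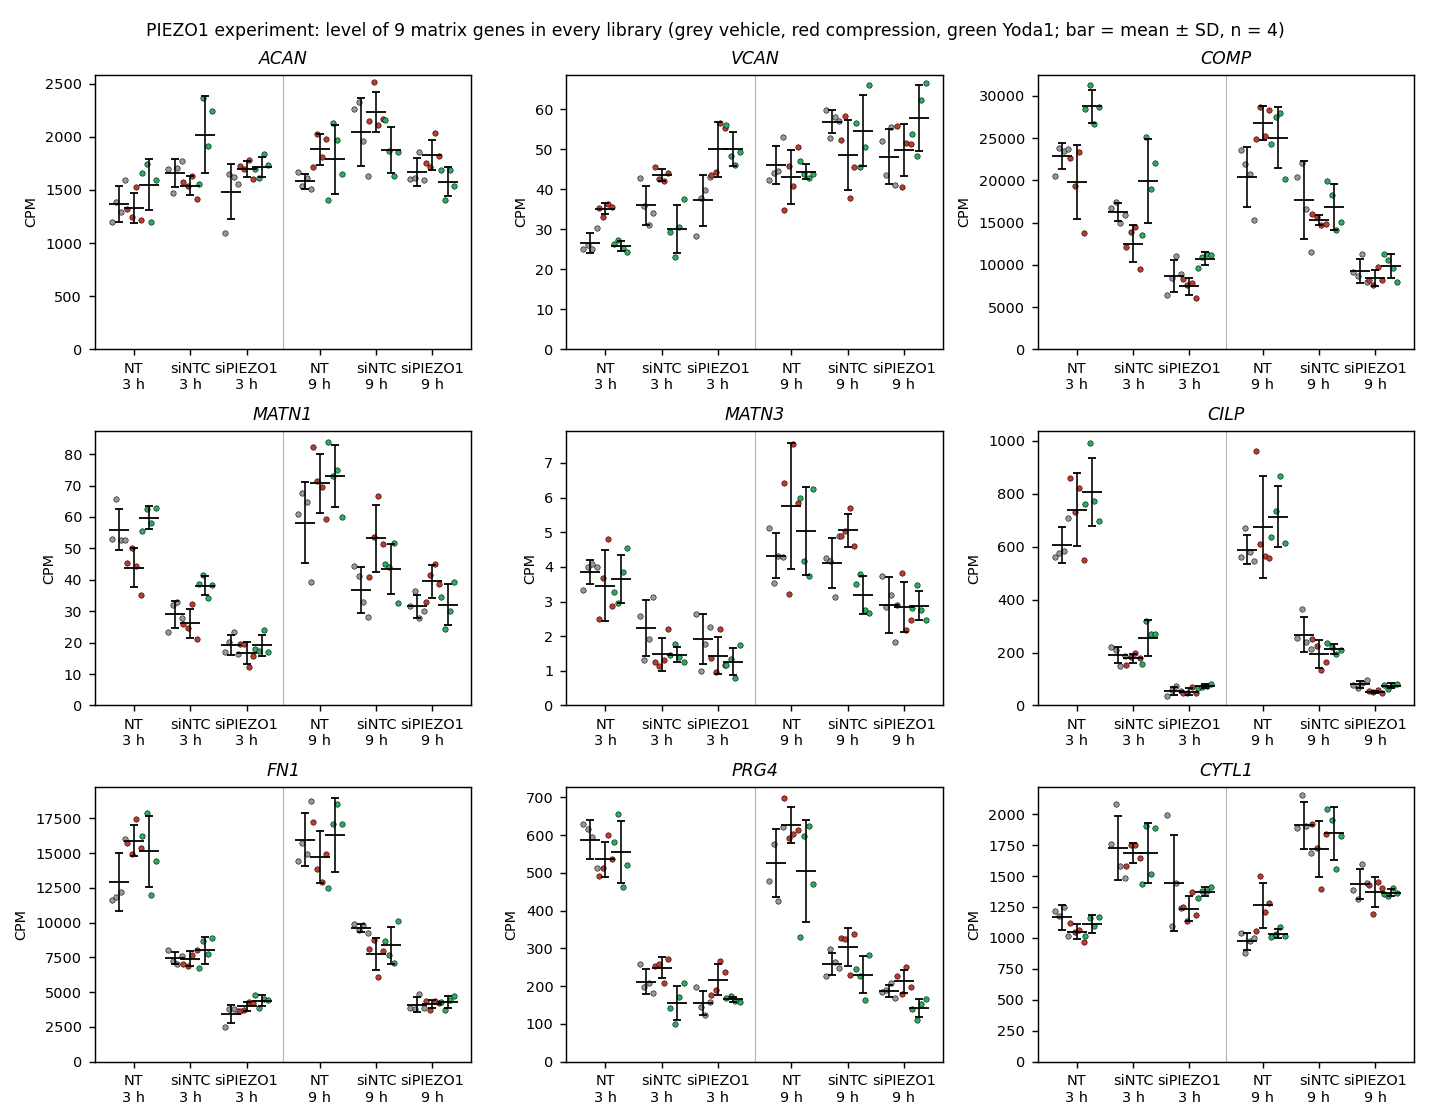
Levels of the 9 genes in the PIEZO1 experiment, in CPM on linear axes that start at 0, as 1 point per library of NT, siNTC and siPIEZO1 constructs at 3 h and 9 h (grey vehicle, red compression, green Yoda1) with the mean and SD. CILP at 3 h steps down from 550.1 to 990.4 CPM in NT through 149 to 318.7 CPM in siNTC to 36.7 to 81.2 CPM in siPIEZO1 libraries, while ACAN overlaps between all 3 states.

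The siNTC state controls for transfection itself. In vehicle at 3 h it differed from NT in 7.53% of all genes and in 7 of the 9 members. CILP stood at 560.5, 575.5, 583 and 709.8 CPM in NT and at 219.6, 208.6, 149 and 187.5 CPM in siNTC libraries (−1.67 ± 0.18, adjusted p = 2.5e-08). PRG4 stood at 629.5, 616.1, 595.6 and 512.3 CPM and at 258.9, 197.1, 209.3 and 182.2 CPM (−1.47 ± 0.16, adjusted p = 1.3e-08). FN1 stood at 11660, 11820, 12180 and 16050 CPM and at 8014, 7216, 6998 and 7576 CPM (−0.80 ± 0.12, adjusted p = 7.9e-06). For all 3 genes each siNTC library lay below each NT library.

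MATN1 was lower as well (−0.95 ± 0.15, adjusted p = 1.6e-05), and CYTL1 was higher (0.57 ± 0.12, adjusted p = 0.0012), at 1761, 2080, 1581 and 1487 CPM against 1217, 1181, 1248 and 1013 CPM. COMP was called lower (−0.49 ± 0.15, adjusted p = 0.036), but not without any single one of the 8 libraries (adjusted p = 0.056 to 0.11). VCAN was called higher (0.43 ± 0.12, adjusted p = 0.020), but not without NT replicate 1, 2 or 3 or siNTC replicate 1 (adjusted p = 0.057 to 0.11). ACAN (0.28 ± 0.12) and MATN3 (−0.78 ± 0.29) did not pass.

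At 9 h in vehicle 5.3% of all genes and 6 of the 9 members differed between siNTC and NT. CILP (−1.16 ± 0.16), PRG4 (−1.04 ± 0.16), FN1 (−0.75 ± 0.11) and MATN1 (−0.68 ± 0.16) were lower and CYTL1 (0.95 ± 0.09, adjusted p = 3.3e-09) was higher. ACAN was called higher (0.35 ± 0.10, adjusted p = 0.027), but not without NT replicate 2 or 4 or siNTC replicate 1 or 2 (adjusted p = 0.071 to 0.14).

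Averaging the 3 stimuli gives 12 libraries a state. At 3 h siNTC then differed from NT in 21.6% of all genes and in 9 of the 9 members. CILP (−1.79 ± 0.11, adjusted p = 4.9e-16), PRG4 (−1.47 ± 0.09), MATN3 (−1.11 ± 0.17), FN1 (−0.94 ± 0.07), MATN1 (−0.78 ± 0.08) and COMP (−0.56 ± 0.09) were lower, and CYTL1 (0.62 ± 0.07), VCAN (0.32 ± 0.07) and ACAN (0.29 ± 0.07) higher. At 9 h it was 19.1% of all genes and 8 of the 9 members, in the same directions. MATN3 (−0.32 ± 0.13) was the exception that did not pass.

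The comparison of siPIEZO1 with siNTC carries the PIEZO1 siRNA on top of transfection, and shares the siNTC libraries with the comparisons just given. In vehicle at 3 h 5.07% of all genes and 4 of the 9 members differed, all 4 lower. CILP read 36.7, 57.1, 74.5 and 54.9 CPM in siPIEZO1 against 219.6, 208.6, 149 and 187.5 CPM in siNTC libraries (−1.76 ± 0.18, adjusted p = 1.8e-08). FN1 read 2482, 3818, 3803 and 3669 CPM against 8014, 7216, 6998 and 7576 CPM (−1.10 ± 0.12, adjusted p = 3.2e-08). COMP, whose pentamers bind collagens, read 6414, 8381, 11050 and 8919 CPM against 16670, 17410, 14940 and 15920 CPM (−0.89 ± 0.15, adjusted p = 0.00019). No siPIEZO1 library reached a siNTC library for these 3 genes.

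MATN1 was called lower too (−0.57 ± 0.15, adjusted p = 0.015), but not without siNTC replicate 3 or siPIEZO1 replicate 4 (adjusted p = 0.062 and 0.054), nor with the compared groups alone. Replicate 1 of siPIEZO1 in vehicle at 3 h was the library least like its own group (mean Pearson r = 0.961) and the lowest of the 4 for ACAN, VCAN, COMP, CILP and FN1. Without it CILP differed by −1.61 ± 0.18, FN1 by −0.97 ± 0.11 and COMP by −0.77 ± 0.15, all still called. PRG4 (−0.56 ± 0.16, adjusted p = 0.021) and CYTL1 (−0.44 ± 0.10, adjusted p = 0.0049) then passed as well, at −0.43 ± 0.15 and −0.24 ± 0.12 with it.

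At 9 h in vehicle 10.8% of all genes and 4 of the 9 members differed. CILP read 76.8, 65.1, 84.9 and 95.1 CPM against 255.5, 362.7, 238.3 and 212.9 CPM (−1.73 ± 0.17, adjusted p = 1.5e-09). FN1 read 3829, 3774, 4897 and 3888 CPM against 9904, 9492, 9856 and 9258 CPM (−1.23 ± 0.11, adjusted p = 6.2e-10). COMP (−0.92 ± 0.14, adjusted p = 1.6e-05) and CYTL1 (−0.41 ± 0.09, adjusted p = 0.0021) were lower too, and none of the 4 genes overlapped between the states. CYTL1 read 1384, 1317, 1594 and 1446 CPM in siPIEZO1, between the NT libraries (880.2 to 1039 CPM) and the siNTC libraries (1689 to 2156 CPM).

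Over the 3 stimuli, siPIEZO1 differed from siNTC at 3 h in 15.1% of all genes and in 6 of the 9 members. CILP (−1.77 ± 0.11, adjusted p = 1.6e-15), FN1 (−0.94 ± 0.07), COMP (−0.83 ± 0.09), MATN1 (−0.73 ± 0.09) and CYTL1 (−0.32 ± 0.07) were lower and VCAN (0.34 ± 0.07) was higher. ACAN (−0.07 ± 0.07), MATN3 (−0.14 ± 0.17) and PRG4 (−0.17 ± 0.09) did not pass. At 9 h 19.7% of all genes and 8 of the 9 members passed, all 8 lower. ACAN (−0.27 ± 0.06, adjusted p = 0.00050), MATN3 (−0.49 ± 0.13) and PRG4 (−0.55 ± 0.09) had joined. VCAN (−0.04 ± 0.07) was the member that did not pass. Over all stimuli and at both times the CILP and FN1 libraries of the 3 states did not overlap, and those of ACAN did.

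**Figure D4:**
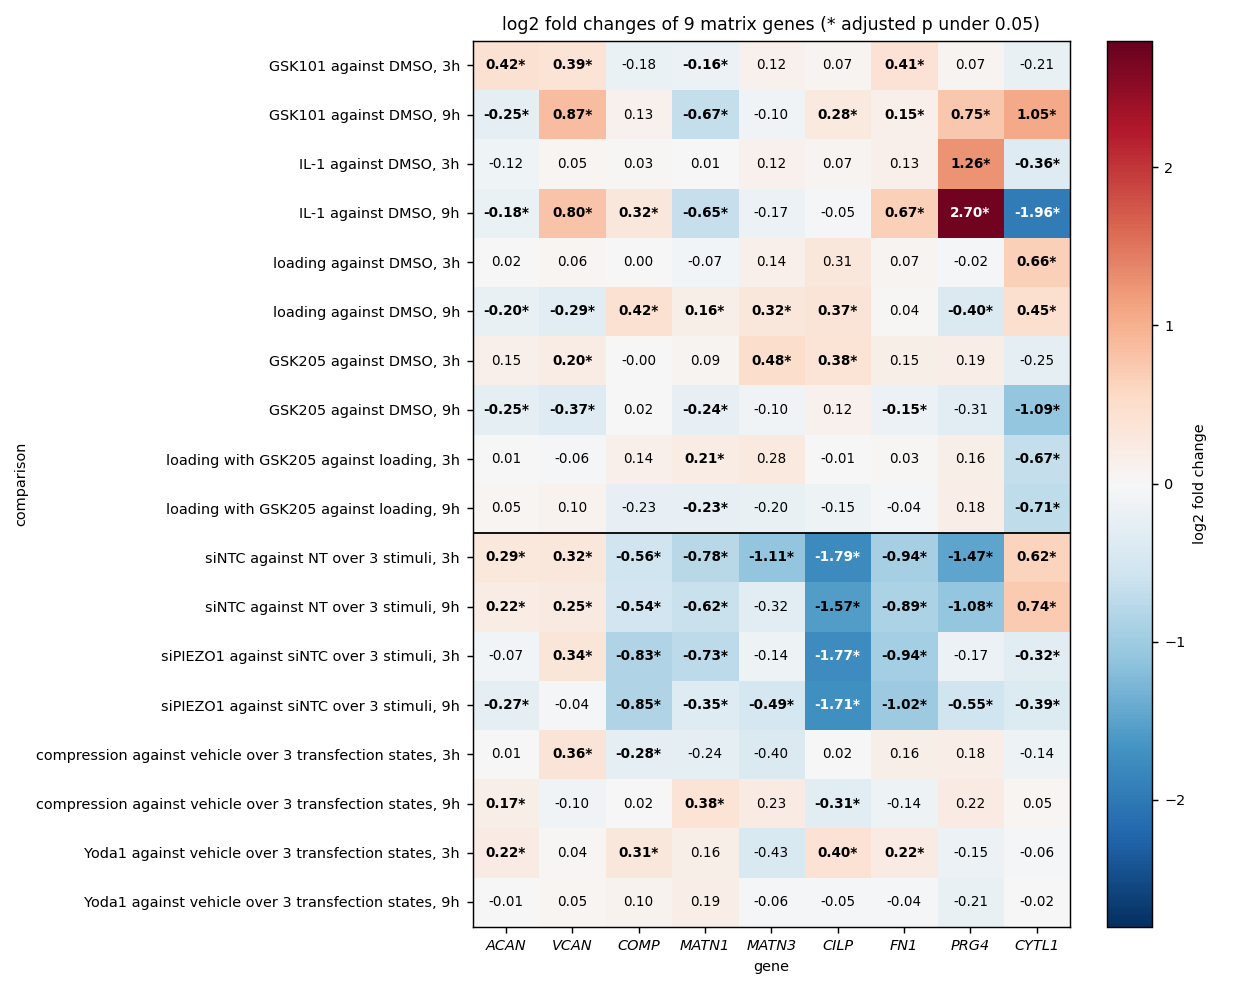
Log2 fold changes of the 9 genes in 18 comparisons, those of the PIEZO1 experiment averaged over stimuli or states, as a colour scale with the value in each cell and an asterisk where the adjusted p was under 0.05. CILP and FN1 are lower in both transfection contrasts, and PRG4 and CYTL1 differ in direction after IL-1.

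Genes around the members shifted with the states. Of 20 other cartilage matrix genes, 0 rose and 15 fell with siPIEZO1 at 3 h over the 3 stimuli (median −0.41, against 0.032 over all genes), and 0 rose and 16 fell at 9 h (median −0.49, against 0.0026). THBS3 (−1.74 at 3 h), a thrombospondin related to COMP, and EPYC (−1.59) led the falls at 3 h. These were 75% and 80% of the list, against 15.1% and 19.7% of all genes. With siNTC against NT 3 rose and 12 fell at 3 h, or 75% against 21.6% (median −0.31, against −0.0040), with UCMA at 1.06 and EPYC at −2.29. Of 28 genes for chondroitin sulfate synthesis and aggrecan assembly, 12 rose and 5 fell with siNTC at 3 h, or 60.7% (median 0.22), with HAPLN3 at 1.42. With siPIEZO1 at 3 h 5 rose and 2 fell, or 25% (median 0.038, against 0.032 over all genes).

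Markers of fibroblasts and synovial cells moved with the states as well. Their summed level over 11 genes at 3 h was 1854 to 3287 CPM in NT, 1005 to 1635 CPM in siNTC and 417.9 to 723.8 CPM in siPIEZO1 libraries, and at 9 h 2599 to 3986, 1290 to 2174 and 653.2 to 862.1 CPM. Of 11 tested, 0 rose and 8 fell with siNTC at 3 h, led by COL3A1 (−1.57) and POSTN (−1.31). Over the 3 stimuli 21.6% of all genes were called there. With siPIEZO1 0 rose and 8 fell at each time, COL3A1 by −1.37 at 3 h. Over the 3 stimuli 15.1% of all genes were called with siPIEZO1 at 3 h and 19.7% at 9 h. PI16 was at or below 1.17 CPM throughout. The summed chondrocyte markers were 9015 to 12090 CPM in NT, 9715 to 11350 CPM in siNTC and 8210 to 9772 CPM in siPIEZO1 libraries at 3 h. Of 12 chondrocyte markers, 0 rose and 7 fell with siPIEZO1 at 9 h, led by CNMD (−0.86), beside the 19.7% of all genes. The part of these markers in the transfection results was not tested.

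Compression to 80% was the mechanical stimulus of this experiment. Within single states few members passed. In NT at 3 h 6.27% of all genes and 1 of the 9 members did, VCAN, at 35.4, 33.1, 36.4 and 35.7 CPM against 25.1, 26.1, 24.97 and 30.3 CPM in vehicle. Its groups did not overlap (0.39 ± 0.12, adjusted p = 0.047), yet the call was lost without any compression replicate or vehicle replicate 1, 2 or 3 (adjusted p = 0.073 to 0.15), with DESeq2's size factors and with no filter. In siNTC 0.911% of all genes and 0 of the 9 members passed with edgeR, 3 had an unadjusted p under 0.05 and DESeq2 called 0. In siPIEZO1 it was 0.6% of all genes and 0 members, with 2 under 0.05 unadjusted and 1 called by DESeq2.

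At 9 h compression in NT changed 3.51% of all genes and 1 member, CYTL1, at 1054, 1499, 1211 and 1285 CPM against 1039, 880.2, 977.4 and 997.6 CPM. That rise (0.37 ± 0.09, adjusted p = 0.016) was lost without compression replicate 2 (0.27) or vehicle replicate 2 (0.32), and with the compared groups alone. In siNTC 6.43% of all genes and 1 member passed, MATN1 (0.54 ± 0.16, adjusted p = 0.041), lost without compression replicate 2, 3 or 4 or vehicle replicate 3 or 4 (0.40 to 0.56) and with the compared groups alone. In siPIEZO1 2.18% of all genes and 1 member passed, CILP (−0.63 ± 0.16, adjusted p = 0.027), lost without compression replicate 1, 2 or 4 or vehicle replicate 3 or 4 (−0.64 to −0.53).

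Averaged over the 3 states, compression at 3 h changed 13.1% of all genes and 2 of the 9 members. VCAN rose by 0.36 ± 0.07 (adjusted p = 0.00053). In siNTC it read 45.5, 42.7, 42.05 and 44.2 CPM against 42.8, 36.0, 31.1 and 34.1 CPM, and in siPIEZO1 43.6, 44.4, 56.5 and 55.5 CPM against 28.3, 37.9, 39.9 and 43.1 CPM. The groups overlapped in siNTC and stood apart in NT and siPIEZO1. COMP was called lower (−0.28 ± 0.09, adjusted p = 0.030), but not without replicate 4 of compression in any of the 3 states, NT vehicle replicate 2 or siPIEZO1 vehicle replicate 3 (adjusted p = 0.051 to 0.068).

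At 9 h over the 3 states 13.6% of all genes and 3 of the 9 members passed. MATN1 was higher by 0.38 ± 0.09 (adjusted p = 0.0054), with overlapping groups in each state. ACAN (0.17 ± 0.06, adjusted p = 0.041) and CILP (−0.31 ± 0.09, adjusted p = 0.023) were called on thin support. ACAN was lost on leaving out any of 12 of the 24 libraries (0.14 to 0.17, adjusted p = 0.054 to 0.099), namely compression replicates 2 and 4 and vehicle replicates 2 and 4 of NT, compression replicate 2 and vehicle replicates 3 and 4 of siNTC, and compression replicates 3 and 4 and vehicle replicates 1, 2 and 4 of siPIEZO1, and with DESeq2's size factors. CILP was lost without compression replicate 3 or 4 of NT, compression replicate 3 or 4 or vehicle replicate 2 of siNTC, or vehicle replicate 4 of siPIEZO1 (−0.28 to −0.25, adjusted p = 0.050 to 0.060).

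In the surrounding lists, compression over the 3 states at 3 h raised 9 of 14 transcription factors of matrix genes and lowered 0, or 64.3% against 13.1% of all genes (median 0.27, against −0.019), with KLF4 at 0.65 and SOX9, the master regulator of chondrocytes, at 0.44. Of 18 proteases and inhibitors 3 rose and 0 fell, or 16.7% (median 0.022), with ADAMTS1 at 1.29 and ADAMTS5 at 0.62, both aggrecanases. Of 20 other cartilage matrix genes 1 rose and 7 fell, or 40% (median −0.10), with COL9A1 at −0.39. At 9 h 8 rose and 4 fell, or 60% against 13.6% of all genes (median 0.038, against 0.019), with COL9A3 at 0.61 and OGN at −0.43.

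Yoda1, which holds PIEZO1 open, called no member in any single state. At 3 h in NT 0.409% of all genes and 0 members passed with edgeR, 2 had an unadjusted p under 0.05 and DESeq2 called 0. In siNTC it was 5.4% of all genes and 0 members, with 6 under 0.05 unadjusted and 1 called by DESeq2. In siPIEZO1 it was 0.262% and 0 members, with 3 under 0.05 unadjusted and 0 by DESeq2. At 9 h 0% of all genes passed in NT and 0% in siNTC with edgeR. In NT 1580 genes and 1 member had an unadjusted p under 0.05 and DESeq2 called 17 genes and 0 members, and in siNTC the numbers were 982 genes, 0 members, 2 genes and 0 members. In siPIEZO1 at 9 h 2.54% of all genes and 0 members passed, with 2 members under 0.05 unadjusted and 0 by DESeq2.

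Over the 3 states Yoda1 at 3 h changed 11.2% of all genes and 4 of the 9 members, all 4 upward. CILP rose by 0.40 ± 0.10 (adjusted p = 0.012). Its Yoda1 libraries read 763.1, 990.4, 774 and 695.6 CPM in NT, 156.6, 318.7, 270.3 and 271.1 CPM in siNTC and 65.95, 69.2, 75.3 and 81.2 CPM in siPIEZO1, and in each state they overlapped the vehicle libraries. COMP (0.31 ± 0.09, adjusted p = 0.021) was called, but not without siNTC Yoda1 replicate 2 (0.27, adjusted p = 0.0535). ACAN (0.22 ± 0.07, adjusted p = 0.031) was not called without NT vehicle replicate 1 or 3, NT Yoda1 replicate 1 or 2, siNTC vehicle replicate 2, siNTC Yoda1 replicate 2, siPIEZO1 vehicle replicate 1 or siPIEZO1 Yoda1 replicate 3 (adjusted p = 0.052 to 0.066). FN1 (0.22 ± 0.07, adjusted p = 0.028) was not called without NT vehicle replicate 1 or 2, NT Yoda1 replicate 2 or siNTC Yoda1 replicate 2 (adjusted p = 0.052 to 0.058). ACAN and FN1 were also lost with the compared groups alone. At 9 h 0.21% of all genes and 0 members passed with edgeR, 2 members had an unadjusted p under 0.05 and DESeq2 called 0.

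Compression and Yoda1 were compared directly in NT. At 3 h 4.32% of all genes and 2 of the 9 members differed. COMP was lower after compression, at 22590, 19380, 23330 and 13770 CPM against 28420, 31260, 26610 and 28660 CPM with Yoda1 (−0.55 ± 0.15, adjusted p = 0.033). VCAN was higher, at 35.4, 33.1, 36.4 and 35.7 CPM against 26.4, 27.3, 25.3 and 24.4 CPM (0.44 ± 0.12, adjusted p = 0.034). Neither gene's groups overlapped, but COMP was lost without compression replicate 2 or 4 or Yoda1 replicate 1, 2 or 4 (adjusted p = 0.059 to 0.17). VCAN was lost without any single one of the 8 libraries (adjusted p = 0.059 to 0.12) and with no filter. At 9 h 0.784% of all genes and 0 members differed with edgeR, 2 had an unadjusted p under 0.05 and DESeq2 called 0.

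Whether the PIEZO1 siRNA altered these responses was tested by interaction. For compression at 3 h 0% of all genes passed with edgeR, 854 genes and 0 members had an unadjusted p under 0.05, and DESeq2 called 0 members. The differences between the effects in siPIEZO1 and siNTC lay between −0.19 ± 0.17 (CYTL1) and 0.31 ± 0.17 (ACAN). For compression at 9 h 1.09% of all genes and 0 members passed, with 1 member under 0.05 unadjusted and 0 by DESeq2. For Yoda1 at 3 h 0.938% of all genes and 1 member passed. The Yoda1 effect on VCAN was 0.42 ± 0.12 in siPIEZO1 and −0.26 ± 0.12 in siNTC, neither called on its own, with a difference of 0.68 ± 0.17 (adjusted p = 0.046). That call was lost on leaving out any of 12 of the 16 libraries, that is, all but siNTC vehicle replicate 3, siNTC Yoda1 replicate 4 and siPIEZO1 vehicle replicates 3 and 4 (0.57 to 0.72, adjusted p = 0.051 to 0.12). It was also lost with DESeq2's size factors, with no filter and with the compared groups alone. For Yoda1 at 9 h 0.0269% of all genes and 0 members passed with edgeR, 0 members had an unadjusted p under 0.05 and DESeq2 called 0.

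Between harvests, NT vehicle libraries differed in 16.1% of all genes and in 1 of the 9 members. VCAN rose from 25.1, 26.1, 24.97 and 30.3 CPM at 3 h to 42.5, 44.1, 44.6 and 53.2 CPM at 9 h (0.79 ± 0.13, adjusted p = 2.4e-06), with no overlap. The compression effect in NT changed between harvests for 9.21% of all genes and for 1 member, CYTL1 (0.52 ± 0.15, adjusted p = 0.021). It was lost without compression 3 h replicate 4, compression 9 h replicate 2, vehicle 3 h replicate 1, 2 or 3 or vehicle 9 h replicate 2 (0.40 to 0.50, adjusted p = 0.052 to 0.12).

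The genes most like each member were found by Pearson correlation of log2 group means, over 12 groups and 9374 candidate genes in the TRPV4 experiment and 18 groups and 8381 candidates in the PIEZO1 experiment. These values describe groups that share libraries, kit and time and carry no test. In the TRPV4 experiment the gene most like ACAN was COL11A2 (r = 0.96), a collagen chain of cartilage. VCAN was most like NEXN and COL12A1 (both 0.98), PRG4 like FBXO32 and LIFR (both 0.98), MATN1 like TRIM37 (0.97), CYTL1 like POMGNT2 (0.97), MATN3 like SPARCL1 (0.96), FN1 like PDIA3 (0.95), and COMP like SS18L2 and CILP like OSTF1 (both 0.93).

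In the PIEZO1 experiment CILP was most like CHAD (0.99), FN1 like THBS3 and SPARC (both 0.99), COMP like THBS2 (0.97), PRG4 like COL4A1 (0.96), MATN1 like MFAP2 (0.95) and VCAN like HAPLN1 (0.93), the link protein of aggrecan. MATN3 was most like OXCT1 (0.93), CYTL1 like RRM2 (0.93) and ACAN like MELTF (0.89). Among the members themselves, CILP and FN1 (0.99), COMP and CILP (0.97) and COMP and FN1 (0.95) had the highest values there. In the TRPV4 experiment the pairs farthest from 0 were MATN1 with VCAN (−0.84) and MATN3 with CILP (0.81).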

How the data were processed

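The values are raw counts, reads per gene in each library, in a single table that the authors deposited without normalisation. The tools named in the submitters' processing notes are Trim Galore, STAR and HTSeq, with the build Sscrofa11.1. Neither their versions nor a strand setting is stated in the sources read, and overlapping genes of opposite strand may share reads. Per the labels' protocols, TRPV4 libraries followed ribosomal RNA removal and PIEZO1 libraries a low-input kit. Of 32388 lines, 481 repeated ones were removed, leaving 31907 identifiers.

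Groups and replicate numbers came from sample titles. In R 4.3.3 with edgeR 4.0.16, libraries of each experiment and time were scaled by TMM, filtered with filterByExpr (minimum count 10), and fitted with 1 quasi-likelihood model holding a term per group. Comparisons between times used models of both times. P-values were adjusted by Benjamini-Hochberg over all 16540 to 20202 genes tested and a gene was called at an adjusted p under 0.05, whatever its fold. The standard error is the log2 fold change divided by the square root of F. Libraries of a group varied less in the TRPV4 experiment (common biological CV 0.107 at 3 h, 0.0874 at 9 h) than in the PIEZO1 experiment (0.282, 0.300). Counts were simulated with 100 genes changed by 0.5 and 100 by 1 on the log2 scale, all with a mean above 5 CPM. Of those changed by 0.5, 87% were called in the GSK101 comparison at 3 h, and 45% in compression of NT at 3 h. The real comparisons called 6627 and 1149 genes, and MATN3 averaged 3.16 CPM in the PIEZO1 experiment. The simulated shares are therefore not detection rates for the members. Pairs of libraries within a group differed beyond sampling noise (chi-square per degree of freedom at least 5.49).

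The members and lists were chosen with earlier results of these data known. The 8 comparisons averaged over stimuli or transfection states were added after the data were seen. For changes in a list, the text names at most 4 genes per list and comparison, the 2 largest rises and falls among those called. It also names the genes most like a member (mean of at least 5 CPM, 0.5 CPM added before the logarithm). Marker genes given by their level in CPM, such as TNC, DPT, PTPRC and PI16, were not picked by that rule. Of the listed genes, 3 had no line in the table. Alternatives were DESeq2 1.42.0, its size factors, no filter, protein-coding genes alone, the compared groups alone, a replicate block, and leaving out each library.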

Additional observations from a re-analysis of the deposited data

Results flagged for a closer look

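In 21 of 270 sets of 4 libraries (7.78%), 1 library stood apart from the other 3 by a gap that filled most of the range of the 4 (Dixon's 95% limit), and chance gives about 1 such set in 20. Each is 1 member in 1 group, in CPM.

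In the TRPV4 experiment the library was the highest for ACAN after GSK101 at 9 h (15640), COMP after GSK101 at 9 h (2308), MATN1 after GSK101 at 3 h (2519), CILP after loading at 3 h (24.2) and VCAN after GSK205 at 3 h (164.4). It was the lowest for VCAN after IL-1 at 9 h (247.2).

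In NT vehicle at 3 h the highest library stood apart for MATN1 (65.8), CILP (709.8) and FN1 (16050), and the lowest for COMP (20530) and MATN3 (3.32). CILP was highest at 960.2 in 1 library of NT compression at 9 h. In siNTC compression at 9 h ACAN had a high library (2516) and PRG4 a low one (229.3). In siPIEZO1 vehicle at 3 h replicate 1 was low for ACAN (1097) and FN1 (2482), and in siPIEZO1 vehicle at 9 h replicate 3 was high for ACAN (1861) and FN1 (4897). In siPIEZO1 the remaining sets were MATN1 with Yoda1 at 3 h (24.2, highest), CILP with compression at 3 h (70.6, highest) and CYTL1 with compression at 9 h (1190, lowest).

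An effect differed between times, or with a second treatment, in 20 of 90 tests of such a difference on the log2 scale. From 3 h to 9 h the GSK101 effect changed by −0.62 for ACAN, 0.35 for COMP, −0.46 for MATN1, 0.73 for PRG4, 1.31 for CYTL1, −0.21 for FN1 and 0.53 for VCAN. The loading effect changed by 0.45 for COMP, 0.26 for MATN1 and −0.32 for VCAN. The IL-1 effect changed by 0.33 for COMP, −0.62 for MATN1, 1.48 for PRG4, −1.56 for CYTL1, 0.58 for FN1 and 0.78 for VCAN. With GSK205 present, the loading effect at 9 h differed by 0.30 for ACAN and 0.47 for VCAN. The Yoda1 effect on VCAN at 3 h differed by 0.68 between siPIEZO1 and siNTC, and the compression effect on CYTL1 in NT by 0.52 between 9 h and 3 h.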

How the results depend on the processing

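Of 450 member results 145 were called, and 109 of these stayed called under every alternative run. The other 36 were lost on leaving out at least 1 library, 1 was lost with DESeq2, and 0 changed sign. The PIEZO1 experiment has the larger spread between libraries, and MATN3 had as few as 35 counts there.

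The number of members called moved as follows. With no filter it was 4 (against 2) for loading with GSK205 against loading at 9 h and 4 (against 2) for the interaction at 9 h. In NT at 3 h it was 0 (against 1) for compression and 1 (against 2) for compression against Yoda1, and for the Yoda1 effect in siPIEZO1 against siNTC at 3 h 0 (against 1). With DESeq2's size factors it was 0 for compression in NT and 0 for that Yoda1 effect at 3 h. With the compared groups alone it was 2 for compression in NT at 3 h, 1 (against 0) for Yoda1 in NT at 3 h, 0 for that Yoda1 effect, 0 (against 1) for compression in NT at 9 h, 3 (against 1) for NT vehicle between times, 4 (against 1) for the compression effect between times and 2 (against 4) for Yoda1 over 3 states at 3 h. With DESeq2 it was 1 (against 0) for compression in siPIEZO1 at 3 h, 1 (against 0) for Yoda1 in siNTC at 3 h, 2 (against 1) for compression in siNTC at 9 h, 2 for NT vehicle between times and 4 for the compression effect between times, where protein-coding genes alone gave 3.

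The labels do not say that a number marks shared cells, and the deviations of libraries with the same number correlated by −0.13 to 0.15, with few pairs over 0.1 (1, 3, 1 and 2, for TRPV4 at 3 h and 9 h and PIEZO1 at 3 h and 9 h), so the numbers were not taken to pair them. In that order 5 of 24, 6 of 24, 7 of 36 and 17 of 36 libraries correlated best with their own number, where chance gives 6, 6, 9 and 9. The 17 in the PIEZO1 experiment at 9 h is a hint from the data of shared numbers there, not from the design. With a replicate block 1 called member was lost, COMP for GSK101 against IL-1 at 3 h, and the members called were 2 for compression in NT at 9 h and 3 for the compression effect between times (against 1 each).

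Leaving out 1 library at a time, the members called ranged from 2 to 5 for GSK205 at 3 h, 1 to 2 for loading with GSK205 against loading at 3 h, 0 to 1 for the interaction at 3 h, 3 to 6 for DMSO between times and 1 to 4 for the loading effect between times. In NT they ranged from 0 to 2 for compression at 3 h, 0 to 1 for compression at 9 h, 0 to 1 for compression against Yoda1 at each time, 1 to 2 for vehicle between times and 0 to 3 for the compression effect between times. They ranged from 0 to 2 for Yoda1 in siNTC at 3 h, 0 to 1 for the Yoda1 effect at 3 h, 0 to 2 for compression in siNTC at 9 h and 0 to 1 for compression in siPIEZO1 at 9 h. Over 3 states they ranged from 1 to 4 (compression, 3 h), 1 to 5 (Yoda1, 3 h) and 1 to 3 (compression, 9 h).

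Over all genes, calls moved by more than 1.5 times in the cases that follow, each with the main count in brackets. Leaving out 1 library at a time, they ranged from 1057 to 1759 (1683) for loading, 1596 to 2524 (2529) for loading with GSK205 against loading and 135 to 671 (372) for the interaction at 3 h. At 9 h they ranged from 295 to 746 (678) for loading with GSK205 against loading and 505 to 896 (767) for the interaction, and from 1129 to 2175 (1761) for the loading effect between times. In the PIEZO1 experiment at 3 h they ranged from 526 to 1583 (1149), 62 to 189 (167) and 25 to 117 (110) for compression in NT, siNTC and siPIEZO1, and 13 to 394 (75), 229 to 1223 (989) and 14 to 89 (48) for Yoda1. They ranged from 295 to 616 (792) for compression against Yoda1, 918 to 1569 (1381) for siNTC and 590 to 1355 (929) for siPIEZO1 in vehicle, 0 to 1 (0) and 37 to 297 (172) for the compression and Yoda1 effects and 1205 to 2614 (2056) for Yoda1 over 3 states. At 9 h they ranged from 180 to 797 (653), 374 to 1393 (1196) and 194 to 463 (405) for compression, 0 to 2 (0) and 43 to 673 (472) for Yoda1 in NT and siPIEZO1, and 33 to 176 (146) for compression against Yoda1. They ranged from 543 to 1212 (986) for siNTC and 1261 to 2039 (2017) for siPIEZO1 in vehicle, 60 to 357 (202) and 0 to 29 (5) for the compression and Yoda1 effects, 5 to 53 (39) for Yoda1 over 3 states and, between times, 1205 to 2165 (1861) for the compression effect in NT. DESeq2 gave 685 (against 372) for the interaction at 3 h and 1181 (against 678) for loading with GSK205 against loading at 9 h. At 3 h it gave 398 (167) for compression in siNTC, 304 (110) for compression in siPIEZO1, 230 (75), 1629 (989) and 157 (48) for Yoda1 in NT, siNTC and siPIEZO1, 1357 (792) for compression against Yoda1, 1410 (929) for siPIEZO1 in vehicle and 519 (172) for the Yoda1 effect. At 9 h it gave 1216 (653), 1929 (1196) and 718 (405) for compression in the 3 states, 17 (0), 2 (0) and 892 (472) for Yoda1, 297 (146) for compression against Yoda1, 510 (202) and 111 (5) for the compression and Yoda1 effects and 227 (39) for Yoda1 over 3 states. The compared groups alone gave 1021 (1683) for loading at 3 h. At 3 h they gave 309 (167) and 2 (110) for compression in siNTC and siPIEZO1, 210 (75), 21 (989) and 7 (48) for Yoda1 in the 3 states, 1625 (792) for compression against Yoda1, 244 (929) for siPIEZO1 in vehicle, 3 (172) for the Yoda1 effect and 1133 (2056) for Yoda1 over 3 states. At 9 h they gave 419 (653) and 589 (1196) for compression in NT and siNTC, 2 (472) for Yoda1 in siPIEZO1, 6 (146) for compression against Yoda1, 1313 (2017) for siPIEZO1 in vehicle, 44 (202) for the compression effect and 0 (5) for the Yoda1 effect. The replicate block gave 230 (372) for the interaction at 3 h and, at 9 h, 1043 (653) for compression and 3 (0) for Yoda1 in NT, 282 (146) for compression against Yoda1, 88 (5) for the Yoda1 effect and 136 (39) for Yoda1 over 3 states. At 9 h the Yoda1 effect had 16 calls with no filter and 2 with protein-coding genes alone, and Yoda1 in NT 1 with the latter. The cause of these differences was not tested.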
